A study of Mus musculus with 4 samples.

Results

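Macrophages exposed for 16 h to epithelial vesicles loaded with miR-17 mimics were compared with unexposed macrophages across all genes. Both were bone marrow-derived macrophages (BMDMs), grown from bone marrow of C57BL/6 mice aged 6 to 8 weeks, by 5 to 7 days of culture with 30% L929-conditioned medium, a source of the macrophage growth factor M-CSF. The miR-17 EV group received extracellular vesicles (EVs) of Beas2B, a human lung epithelial line, that per the labels were transfected with miR-17 mimics, and the unexposed group, labelled WT, received none. The other groups of the study received Beas2B vesicles with miR-93 mimics (miR-93 EV) or scrambled control RNA (control EV). The comparison used 2 of the 4 libraries, chosen by their labels, and each library was the pooled RNA of 4 biological replicates. With 1 library per group no test between groups was possible, so ratios compare libraries and not conditions. The pair differs both in contact with vesicles and in the miR-17 load of those vesicles, and these cannot be told apart within it, so the values of miR-93 EV and control EV are given beside those of the main genes.

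MicroRNAs (miRNAs) are short RNAs that, bound to Argonaute proteins, pair with messenger RNAs, mostly in the 3' UTR, and lower their stability and translation. Pairing runs through the seed, bases 2 to 8 of the mature miRNA. miR-17 is made from the miR-17-92 cluster, a transcript known for driving proliferation, and its family shares targets in cell cycle control, TGF-beta signalling and autophagy. Vesicles taken up by macrophages can carry miRNAs, proteins and lipids into them.

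The labels name the mimic without its arm. The mature mouse sequences are shown for the 5p arm of miR-17, for miR-93, whose mimics were carried by the other loaded vesicles, and for miR-20a, made from the same cluster as miR-17. The sequences are from RefSeq (GRCm38.p6), 5′ to 3′, with the seed in capitals, and the 3 share it.
mmu-miR-17-5p: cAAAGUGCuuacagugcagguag
mmu-miR-93-5p: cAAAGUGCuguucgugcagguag
mmu-miR-20a-5p: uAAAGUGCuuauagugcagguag
The complement of this seed is GCACTTT in DNA letters. A 3' UTR with GCACTTTA, the form that also has A opposite base 1 of the miRNA, was called an 8mer site. GCACTTT alone was called 7mer-m8, CACTTTA without the G was called 7mer-A1, and CACTTT alone was called 6mer. Only the sense strand of the UTR was searched, and the shorter letters are contained in the longer ones. Of 21037 annotated 3' UTRs, 3.50% held GCACTTTA, 11.8% held GCACTTT and 36.9% held CACTTT. Below are 8mer sites in the 4 reported miR-17 family targets with an 8mer site and the lowest ratios among those with a counting interval below 1. The letters are the sense strand of the transcript (GENCODE M21, GRCm38), with the 8mer in capitals.
Tgfbr2, chr9:116090073-116090102, minus strand: tttacaacagccaataacgtttGCACTTTA
Ncoa3, chr2:166070709-166070738, plus strand: ccgccccaatgtgcagccaagcGCACTTTA
Map3k5, chr10:20141653-20141682, plus strand: gacaggaggagagggagaagctGCACTTTA
Fbxo31, chr8:121552163-121552192, minus strand: ggggcccgggtgggggaagcatGCACTTTA

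The libraries held 22607247 reads in genes for miR-17 EV and 19705482 for unexposed, and size factors were 1.13 and 0.949. All 10 macrophage markers were detected in both libraries, and Lyz2 alone had 475861 normalized counts in miR-17 EV against 512117 in unexposed. Of the 10, 9 were lower in miR-17 EV with a counting interval below 1, by log2 ratios from -0.41 to -0.02. Among all genes with a mean of 1000 or more, as all 10 markers had, 37.9% were lower in this way. The 10 markers summed to 850426 normalized counts in miR-17 EV and 925387 in unexposed. Of 10 marker lists of other cells, the highest sums were 2480 normalized counts in miR-17 EV against 2458 in unexposed for 7 T and NK cell genes, 2174 against 2831 for 4 megakaryocyte genes, 2087 against 2757 for 5 osteoclast genes and 1160 against 1003 for 8 neutrophil genes. Most of the T and NK sum came from Il7r, with 2194 normalized counts in miR-17 EV against 2037 in unexposed, and Cd4, with 279 against 418, while Cd3d was at 0 in both and Cd3e at 0 in unexposed. Most of the megakaryocyte sum came from Pf4, with 2134 normalized counts in miR-17 EV against 2785 in unexposed. Of the osteoclast genes, the 3 with enough reads were all lower in miR-17 EV with a counting interval below 1, beside 17.9% of all tested genes. That share was 37.9% at a mean of 1000 or more, as Acp5 had. It was 13.4% at 100 to under 1000, as Ctsk and Mmp9 had. The other 6 lists summed to at most 438 normalized counts in miR-17 EV and 566 in unexposed. The part of other cells in the results was not tested. In bulk RNA, fewer cells of a type and less RNA per cell cannot be told apart.

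The overall difference between the 2 libraries was small. Of 15396 genes with a mean of at least 20 normalized counts in the pair, 96.1% had a ratio within 1.5-fold, and the middle of the distribution lay at a log2 ratio of -0.01. For 11174 genes (72.6%), the whole 95% interval of the ratio was within 1.5-fold. That interval is the exact conditional (Clopper-Pearson) interval of the ratio of 2 read counts and covers counting error only. A gene was called 2-fold higher or lower when log2 of its normalized count plus 1 differed by at least 1 and the interval left out a ratio of 1. By this rule 45 genes were higher in miR-17 EV (0.292%) and 28 were lower (0.182%). Nearly all were sparsely read: 42 of the 45 and 26 of the 28 had a mean under 100 normalized counts, which is 1.18% and 0.732% of the 3554 tested genes in that range. Differences of any size whose interval left out 1, called the interval rule here, were far more common, with 2138 genes higher (13.9%) and 2753 lower (17.9%). The share grew with depth, from 7.09% higher and 4.78% lower among genes under 100, through 14% and 13.4% at 100 to under 1000, to 19.7% and 37.9% among the 4051 genes at 1000 or more.

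**Figure D1:**
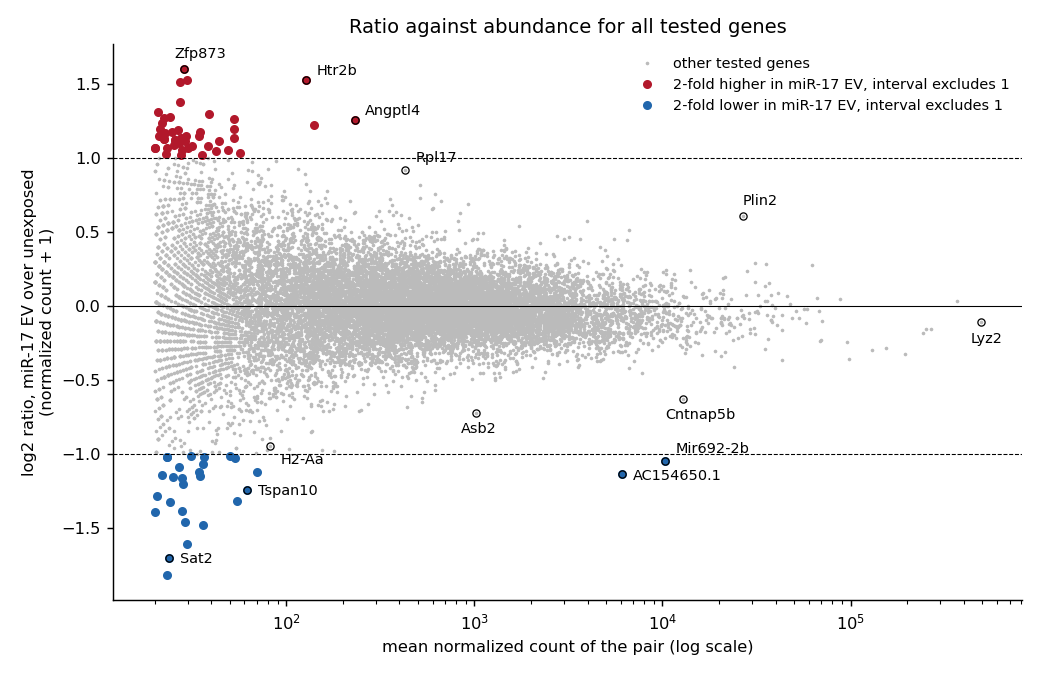
Each point is 1 of 15396 genes, placed by the mean normalized count of the pair (x axis, log scale) and the log2 ratio of miR-17 EV over unexposed (y axis, pseudocount 1); dashed lines mark 2-fold. Red points are the 45 genes called higher and blue points the 28 called lower, nearly all at the left edge, while Plin2 and Cntnap5b stand out of the cloud among genes with many reads.

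Among the 45 higher genes, 27 were protein-coding, 10 were pseudogenes, 6 were lincRNAs and 2 were antisense. Angptl4, whose secreted product blocks lipoprotein lipase, had 326 normalized counts after miR-17 EV, 320.5 after miR-93 EV, 439 after control EV and 136 in unexposed cells. Its ratio of miR-17 EV over unexposed was 2.40 (95% interval 1.96 to 2.95), and all 3 exposed libraries were above the unexposed one, control EV highest. Htr2b, a serotonin receptor gene, had 189.9 normalized counts in the miR-17 EV library, 174 in that of miR-93 EV, 71.4 in that of control EV and 65.3 in the unexposed one, with a ratio of 2.91 (2.18 to 3.92). It stood high in both mimic libraries, while control EV was close to unexposed. Htr2b lies within the span of Psmd1, a proteasome gene with more reads, and the authors' own log2 values gave it -0.27 in place of a positive difference.

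The other genes named for a high ratio had fewer reads or smaller ratios. Zfp873, a zinc finger gene at chr10:82058417-82061329 (mm10), had the highest ratio of all called genes. It had 43.5 normalized counts in miR-17 EV, beside 32.6 with miR-93 EV, 35.1 with control EV and 13.7 in unexposed cells, and its ratio was 3.17 (1.70 to 6.38) from 49 reads in miR-17 EV against 13 in unexposed. The zinc finger genes Zfp128, with 39.9 normalized counts in miR-17 EV against 14.8 in unexposed, and Zfp963, with 74.5 normalized counts in miR-17 EV against 30.6 in unexposed, were also called. For all 3 zinc finger genes, the miR-93 EV and control EV libraries were also well above unexposed, with 72.6 normalized counts for Zfp963 in control EV. Tnfrsf22, which encodes a decoy receptor for the death ligand TRAIL, had 30.2 normalized counts after miR-17 EV, 23.5 after miR-93 EV, 11.7 after control EV and 11.6 in unexposed cells, a ratio of 2.60 (1.29 to 5.69). Celf4, an RNA-binding protein gene, had 55.9 normalized counts in the miR-17 EV library, 39.8 in that of miR-93 EV, 33.96 in that of control EV and 22.1 in the unexposed one. Slco1c1, a thyroid hormone transporter gene, had 31.9 normalized counts in miR-17 EV, beside 30.8 with miR-93 EV, 17.6 with control EV and 12.6 in unexposed cells. For Tnfrsf22 the control EV library was level with unexposed, and the mimic libraries were higher. Tnfrsf22 is uncertain because a second gene model of the same symbol overlaps it and has more reads, with 137 normalized counts in miR-17 EV against 90.6 in unexposed and no 2-fold call. Zfp963 is also overlapped by a gene with more reads, Gm20422. The authors' value for Slco1c1 was -0.07.

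Above a mean of 100 normalized counts, 3 genes were 2-fold higher, all at 100 to under 1000 (0.0385% of 7791 genes), Angptl4, Htr2b and the pseudogene Gm12551, so the largest differences of at least 1.5-fold by the interval rule are given as well. Plin2, which encodes a coat protein of lipid droplets, had 32294 normalized counts after miR-17 EV, 32399 after miR-93 EV, 37112 after control EV and 21192 in unexposed cells, a ratio of 1.52 (1.498 to 1.55). All 3 exposed libraries were above unexposed for Plin2, control EV highest. Rpl17, a gene of the large ribosomal subunit, had 557 normalized counts in the miR-17 EV library, 402 in that of miR-93 EV, 384 in that of control EV and 294 in the unexposed one, a ratio of 1.90 (1.64 to 2.19). Here miR-17 EV stood above each of the other 3 libraries. Such genes have pseudogene copies of nearly the same sequence, so their counts are uncertain.

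Among the 28 lower genes, 16 were protein-coding, 8 were pseudogenes, 2 were antisense and 2 were miRNA loci. The named protein-coding ones had few reads. Sat2, of the spermidine/spermine acetyltransferase family, had 10.6 normalized counts in miR-17 EV, beside 19.0 with miR-93 EV, 29.3 with control EV and 36.9 in unexposed cells, and its ratio was 0.289 (0.136 to 0.570) from 12 reads against 35. Hap1, the gene of huntingtin-associated protein, had 10.6 normalized counts after miR-17 EV, 15.4 after miR-93 EV, 23.4 after control EV and 29.5 in unexposed cells. Xkr5, of the XK-related family, had 15.1 normalized counts in the miR-17 EV library, 23.5 in that of miR-93 EV, 38.6 in that of control EV and 41.1 in the unexposed one. In these 3 genes miR-17 EV was lowest and miR-93 EV next. Mttp, whose product loads lipid onto apolipoprotein B, had 16.9 normalized counts in miR-17 EV, beside 38.0 with miR-93 EV, 29.3 with control EV and 39.0 in unexposed cells. Mettl7a3, a methyltransferase-like gene with close paralogs, had 13.3 normalized counts after miR-17 EV, 39.8 after miR-93 EV, 24.6 after control EV and 34.8 in unexposed cells. For both, miR-93 EV was near unexposed, control EV lay lower and miR-17 EV was lowest. Tspan10, a tetraspanin gene, had 36.4 normalized counts in the miR-17 EV library, 52.5 in that of miR-93 EV, 38.6 in that of control EV and 87.5 in the unexposed one, and control EV was as low as miR-17 EV.

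The 2 miRNA loci were the only 2-fold differences with a mean of 1000 or more (0.0494% of 4051). AC154650.1 had 3804 normalized counts in miR-17 EV, beside 6069.8 with miR-93 EV, 4204 with control EV and 8369 in unexposed cells. Mir692-2b had 6739 normalized counts after miR-17 EV, 10359 after miR-93 EV, 10738 after control EV and 13909 in unexposed cells. Both lie inside longer genes with more reads, AC154650.1 within Tulp4 and Mir692-2b within Gm10116, so their counts are uncertain. The authors' log2 difference was 0.17 for AC154650.1, of the opposite sign, and 0.0 for Mir692-2b. The mature miRNAs were not measured.

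Protein-coding genes with more reads were lower by less than 2-fold. Cd209f, a C-type lectin gene of the DC-SIGN family, had 96.7 normalized counts in the miR-17 EV library, 78.8 in that of miR-93 EV, 42.2 in that of control EV and 175 in the unexposed one, a ratio of 0.553 (0.430 to 0.708), and control EV was lowest of all. P2ry13, a receptor for ADP, had 97.6 normalized counts in miR-17 EV, beside 121 with miR-93 EV, 121 with control EV and 176 in unexposed cells. Pdgfb, which encodes a chain of platelet-derived growth factor, had 185 normalized counts after miR-17 EV, 206 after miR-93 EV, 233 after control EV and 305 in unexposed cells. In both, the miR-93 EV and control EV libraries lay between miR-17 EV and unexposed. P2ry13 is uncertain because Med12l, with more reads, overlaps it. Asb2, which encodes a substrate-binding subunit of a ubiquitin ligase, had 766 normalized counts in the miR-17 EV library, 904 in that of miR-93 EV, 638 in that of control EV and 1268 in the unexposed one, a ratio of 0.604 (0.553 to 0.660). Cntnap5b, a gene of the contactin-associated family, had 10134 normalized counts in miR-17 EV, beside 10244 with miR-93 EV, 18189 with control EV and 15651 in unexposed cells. Both mimic libraries were lower for Cntnap5b, and control EV was higher than unexposed. Gm7110, with a mean of 2672 normalized counts in the pair, overlaps Cntnap5b. The authors' log2 table listed Cntnap5b at 0 in all 4 libraries, as it did 317 of 14618 genes with at least 20 reads in each library, and the sources used here do not say whether such a 0 is a measured value.

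**Figure D2:**
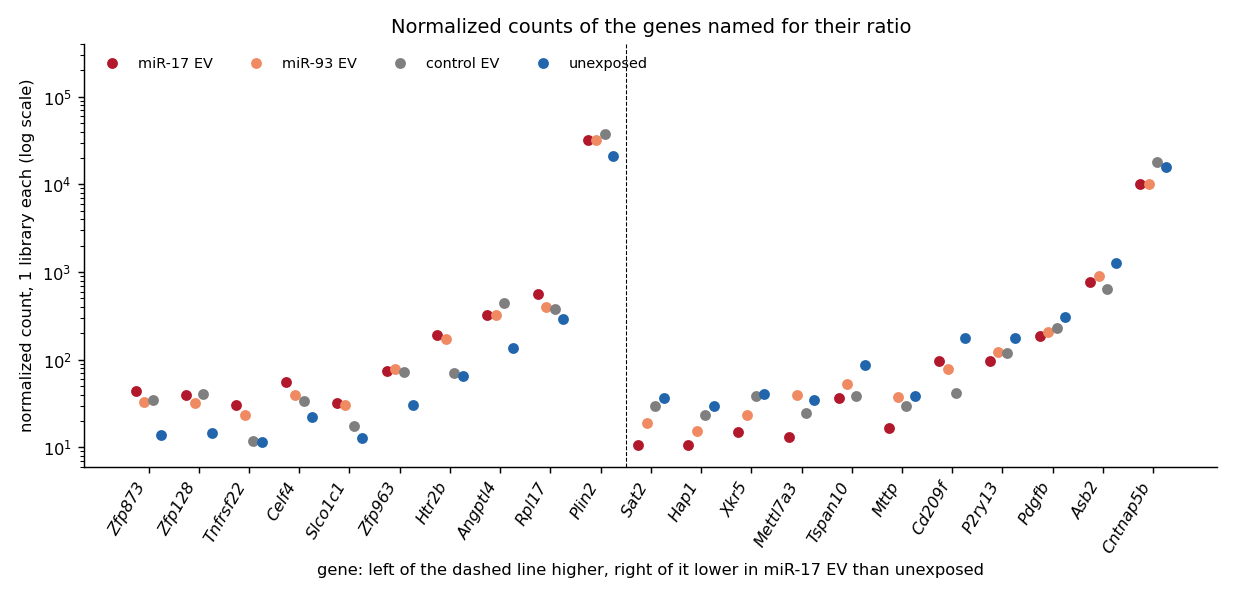
Normalized counts (y axis, log scale) of the 21 genes named for their ratio, 1 point per library, in the order miR-17 EV, miR-93 EV, control EV and unexposed within each gene. Left of the dashed line the unexposed point is the lowest of the 4, as for Angptl4 with 136 against 326 in miR-17 EV; right of it the miR-17 EV point is below unexposed in every gene.

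The genes with the most reads differed little. Lyz2, the macrophage lysozyme gene, had a ratio of 0.929 (0.926 to 0.933), Fth1, the ferritin heavy chain, 1.02 (1.02 to 1.03), and Psap, which encodes the saposin precursor, 0.896 (0.891 to 0.900). The cathepsin genes Ctsb and Ctsd had ratios of 0.896 (0.891 to 0.901) and 0.882 (0.877 to 0.886). Counting error was small at these depths, and differences of this size between 2 libraries have no replicate check.

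The ratio was related to the GC content of genes. In 5 groups of genes of equal size, from the lowest GC to the highest, the median log2 ratio was 0.09, 0.04, -0.02, -0.06 and -0.09, and Spearman's rho across the 15396 genes was -0.29, a description across genes of 2 libraries. The same medians were 0.11, 0.04, -0.02, -0.08 and -0.09 for miR-93 EV over unexposed and -0.09, 0.02, 0.06, 0.02 and -0.06 for control EV over unexposed, comparisons that share the unexposed library. The median number of aligned bases per read was 96.4 for miR-17 EV, 98.7 for miR-93 EV, 114 for control EV and 103 for unexposed. Medians of gene lists are therefore also given with the median of each GC bin set to 0, and the part of GC in single results was not tested.

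The miR-17 locus itself had too few reads to compare. The Mir17 hairpin locus had 0 reads in miR-17 EV and 1 in unexposed, which is not a measure of the mature mimic. Its host transcript Mir17hg had 35.5 normalized counts after miR-17 EV, 42.5 after miR-93 EV, 39.8 after control EV and 22.1 in unexposed cells, a ratio of 1.60 whose interval of 0.923 to 2.86 includes 1. All 3 exposed libraries were nominally above unexposed for Mir17hg, including control EV, which had no miR-17 mimic.

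Genes with a miR-17 seed site had ratios close to those of genes without one. Of 12170 tested genes with a 3' UTR, 2699 had an 8mer or 7mer site, with a median log2 ratio of 0.01, and the 7052 genes with no site had -0.02. For the 556 genes with an 8mer the median was -0.02, for 1241 genes with a 7mer-m8 it was 0.00, for 902 genes with a 7mer-A1 it was 0.03, and for 2419 genes with a 6mer it was 0.00. After GC correction the order turned to -0.03 for 8mer, -0.01 for 7mer-m8, 0.01 for 7mer-A1 and 0.00 for no site. By the interval rule, 99 of the 556 8mer genes were lower (17.8%) and 82 were higher (14.7%), against 1399 (19.8%) and 943 (13.4%) of the genes with no site. Within 5 groups by gene GC, the median of 8mer genes was below that of genes without a site in each group, by most in the highest, at -0.16 against -0.09, and in the lowest at 0.08 against 0.10. By GC of the 3' UTR, 8mer genes were below in 4 of 5 groups and above in the other, at 0.06 against 0.04. By UTR length the order differed between groups: 8mer genes were above genes without a site in the longest of 4 groups, which held 328 of the 556, at -0.00024 against -0.03, and in the shortest, with 14 8mer genes, at 0.06 against -0.02, and below in the other 2. With miR-93 EV over unexposed, the median of the same 8mer genes was -0.02, and that of genes with no site was -0.02 as well. Control EV over unexposed, a comparison without a mimic, gave -0.03 for the 8mer genes against 0.00027 for genes with no site. The miR-93 EV and control EV medians were not corrected for GC. They stand beside the uncorrected miR-17 EV medians, -0.02 for 8mer genes and -0.02 for genes with no site. The cause of these differences was not tested.

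**Figure D3:**
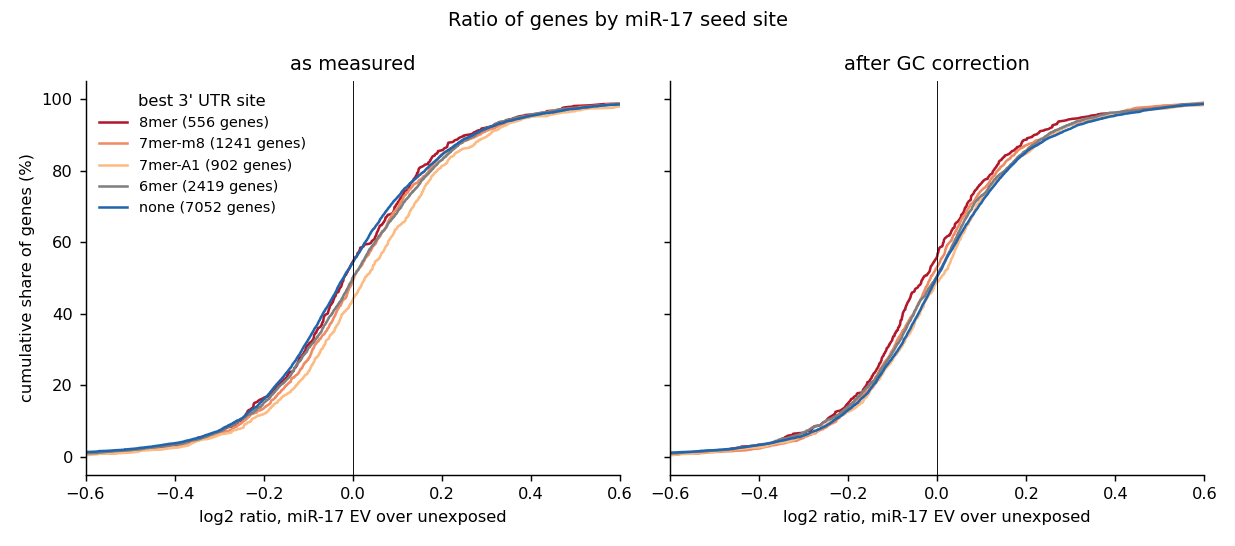
Cumulative share of genes (y axis, percent) by log2 ratio of miR-17 EV over unexposed (x axis), 1 line per best 3' UTR site, as measured (left) and after GC correction (right). The lines nearly coincide; on the right the 8mer line lies slightly to the left of the others, at a median of -0.03 against 0.00 for genes with no site.

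Single 8mer genes moved both ways. Of 437 named 8mer genes with a mean of at least 100 normalized counts, 90 were lower (20.6%) and 75 higher (17.2%) by the interval rule, shares near the 21.8% and 15.9% of all 11842 genes with that mean. The lowest was Mgll, monoacylglycerol lipase, with 508 normalized counts in the miR-17 EV library, 636 in that of miR-93 EV, 549 in that of control EV and 735 in the unexposed one, a ratio of 0.691 (0.618 to 0.773). It was lower in all 3 exposed libraries than in unexposed. Heg1, an endothelial adhesion receptor gene, had 461 normalized counts in miR-17 EV, beside 479.8 with miR-93 EV, 440.4 with control EV and 657 in unexposed cells. Cyb5d2, a heme-binding protein gene, had 153 normalized counts after miR-17 EV, 167 after miR-93 EV, 175 after control EV and 212 in unexposed cells. Control EV was the lowest library for Heg1. At the other end, Ccdc75 had 199.7 normalized counts in the miR-17 EV library, 178 in that of miR-93 EV, 172 in that of control EV and 120.1 in the unexposed one. Gnpnat1, an enzyme of hexosamine synthesis, had 164 normalized counts in miR-17 EV, beside 108 with miR-93 EV, 110.1 with control EV and 100.1 in unexposed cells. Klf11, a transcription factor gene, had 226 normalized counts after miR-17 EV, 243 after miR-93 EV, 223 after control EV and 142 in unexposed cells. Gnpnat1 was high in miR-17 EV alone among the 4 libraries.

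Of 40 reported targets of the miR-17 family, a list drawn from general knowledge, 38 had enough reads, and none differed 2-fold. By the interval rule 14 (36.8%) were lower and 4 (10.5%) higher in miR-17 EV, with a median log2 ratio of -0.05 beside -0.01 for all tested genes. The list's median gene had a mean of 1088 normalized counts, so the list spans depths with different shares of lower genes. Among all genes these shares were 13.4% at 100 to under 1000 and 37.9% at 1000 or more. No share matched for depth was computed. The list's median log2 ratio was -0.01 after GC correction. Scaling by total counts moved it to 0.00, and moved the median of all tested genes to 0.04. Of the 38, 20 had an 8mer site, and 7 of these were lower and 2 higher. Tgfbr2, the type II TGF-beta receptor, had 3465 normalized counts in the miR-17 EV library, 3617 in that of miR-93 EV, 4353 in that of control EV and 4189 in the unexposed one, a ratio of 0.827 (0.791 to 0.865). Ncoa3, a nuclear receptor coactivator gene, had 3774 normalized counts in miR-17 EV, beside 3662 with miR-93 EV, 4763 with control EV and 4472 in unexposed cells, a ratio of 0.844 (0.809 to 0.881). Both mimic libraries were lower for these 2 genes, and control EV was above unexposed. Map3k5, the stress kinase ASK1, showed the same pattern with 202 normalized counts after miR-17 EV, 197 after miR-93 EV, 264 after control EV and 247 in unexposed cells. Fbxo31, an F-box protein gene, had 183 normalized counts in the miR-17 EV library, 237 in that of miR-93 EV, 217 in that of control EV and 228 in the unexposed one, with miR-17 EV the only library below the rest. Fbxo31 is overlapped by Gm20388, a gene with far more reads, so its counts are uncertain.

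Other targets of the list were lower without such an order, or were not lower. Ccnd1, the gene of cyclin D1, had 2129.8 normalized counts in miR-17 EV, beside 1858 with miR-93 EV, 2183 with control EV and 2551 in unexposed cells, lowest in miR-93 EV. Bmpr2, a BMP receptor, had 316 normalized counts after miR-17 EV, 331 after miR-93 EV, 279 after control EV and 375 in unexposed cells, lowest in control EV. Ccnd2, cyclin D2, had 90.5 normalized counts in miR-17 EV against 118 in unexposed, an interval of 0.581 to 1.01 that includes 1, and is overlapped by AC163747.1, which has more reads. Bcl2l11, the pro-apoptotic gene Bim, had 2000.3 normalized counts in miR-17 EV against 1995 in unexposed, and Cdkn1a, the cell cycle inhibitor p21, had 8307 normalized counts in miR-17 EV against 8516 in unexposed. The intervals of Bcl2l11 and Cdkn1a, 0.943 to 1.07 and 0.947 to 1.01, were narrow and included 1. Among the 4 that were higher, Sqstm1, the autophagy receptor p62, had 33005 normalized counts in miR-17 EV against 31375 in unexposed. Hif1a, also among the 4, had 1403 normalized counts in miR-17 EV against 1278 in unexposed. Gm15283, with a mean of 1297 normalized counts in the pair, overlaps Hif1a.

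**Figure D4:**
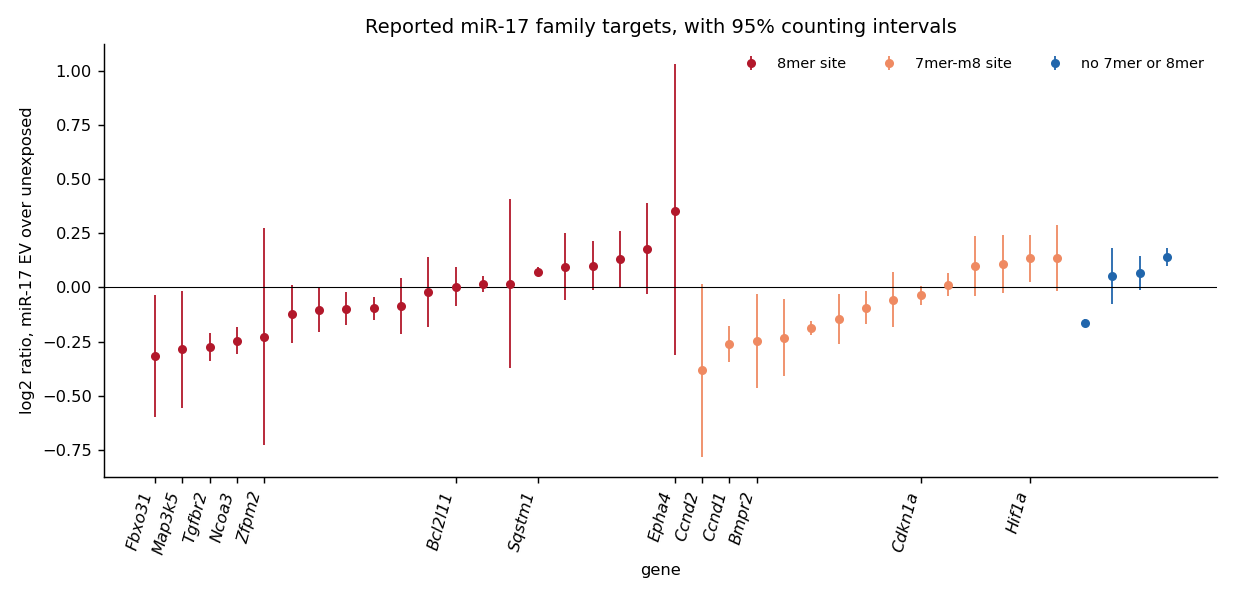
Log2 of the ratio of normalized counts, miR-17 EV over unexposed (y axis), for the 38 reported targets (x axis), grouped by the best site in their 3' UTR, with 95% counting intervals as bars and names under the genes that the text describes. Of the 20 with an 8mer, 7 intervals lie below 0 and 2 above; Epha4 and Zfpm2 have wide bars because they have few reads.

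For gene lists, higher and lower mean by the interval rule, and the shares stand beside 13.9% higher and 17.9% lower among all tested genes and 19.7% and 37.9% among those with a mean of 1000 or more. TGF-beta and BMP signalling, a pathway of receptor kinases and Smad transcription factors known as a target of this miRNA family, had 10 of 26 genes lower (38.5%) and 2 higher, with a median log2 ratio of -0.05 (-0.03 after GC correction). The sign of that median turned under total counts, to 0.004, where the median of all tested genes was 0.04. It also turned under average coverage, to 0.02, beside -0.01 for all tested genes. At the receptors, Eng, the coreceptor endoglin, had 1101 normalized counts in the miR-17 EV library, 1262 in that of miR-93 EV, 1159 in that of control EV and 1382 in the unexposed one, a ratio of 0.797 (0.737 to 0.862), beside Tgfbr2 and Bmpr2 above. Among the transducers, Smad3 was lower with 483 normalized counts in miR-17 EV against 564 in unexposed and Smad5 higher with 384 normalized counts in miR-17 EV against 314 in unexposed. The ligand gene Tgfb1 had 7216 normalized counts in miR-17 EV against 7528 in unexposed, and Smurf2, a ubiquitin ligase that restrains the pathway, had 613 normalized counts in miR-17 EV against 524 in unexposed.

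Lipid gene lists differed in the direction of their medians. Of 34 targets of PPAR receptors and genes of fatty acid oxidation, 11 were higher and 5 lower, with a median log2 ratio of 0.06 (0.09 after GC correction). Beside Angptl4 and Plin2, Hilpda, a lipid droplet protein that inhibits lipolysis, had 378 normalized counts in miR-17 EV, beside 473 with miR-93 EV, 349 with control EV and 242 in unexposed cells, a ratio of 1.56 (1.33 to 1.84). Fabp4, the fatty acid binding protein of macrophages, had 1670.2 normalized counts after miR-17 EV, 1702 after miR-93 EV, 1558 after control EV and 1276 in unexposed cells. Cd36, a fatty acid and oxidized lipoprotein receptor, had 39140.3 normalized counts in the miR-17 EV library, 41344 in that of miR-93 EV, 23394 in that of control EV and 32233 in the unexposed one. The 3 exposed libraries were above unexposed for Hilpda and Fabp4, while for Cd36 control EV was the lowest of all. Cpt1a, which admits fatty acids to mitochondria, had 4179.8 normalized counts in miR-17 EV against 3718 in unexposed, a ratio of 1.12 (1.08 to 1.17).

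Genes of lipid efflux and synthesis that are driven by LXR receptors ran the other way, with none of 17 higher, 9 lower and a median of -0.19 (-0.14 after GC correction), negative under every scaling and measure tried. Abcg1, a sterol exporter, had 4888 normalized counts in miR-17 EV, beside 5413 with miR-93 EV, 5674 with control EV and 6076 in unexposed cells. Apoe, the lipid carrier, had 16964 normalized counts after miR-17 EV, 18119 after miR-93 EV, 23374 after control EV and 20931 in unexposed cells. Scd2, a fatty acid desaturase, had 3031 normalized counts in the miR-17 EV library, 2985 in that of miR-93 EV, 3467 in that of control EV and 4045 in the unexposed one, a ratio of 0.750 (0.716 to 0.785), and Srebf1, the transcription factor of fatty acid synthesis, had 1661 normalized counts in miR-17 EV against 1933 in unexposed. For Abcg1 and Scd2 all 3 exposed libraries were below unexposed, whereas Apoe was highest in control EV. Cholesterol synthesis, with 2 of 24 higher and 3 lower, had no shared direction, and Mvk, mevalonate kinase, had 150.0 normalized counts in miR-17 EV against 209 in unexposed.

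Genes of antigen presentation by MHC class II were mostly lower, with 6 of 10 genes lower, none higher and a median of -0.26 (-0.18 after GC correction). H2-Ab1, a class II beta chain, had 101.2 normalized counts in miR-17 EV, beside 119 with miR-93 EV, 146 with control EV and 156 in unexposed cells, a ratio of 0.649 (0.504 to 0.834), and H2-Eb1 had 45.3 normalized counts after miR-17 EV, 51.6 after miR-93 EV, 84.3 after control EV and 68.5 in unexposed cells. Both mimic libraries were below unexposed for H2-Eb1, and control EV was above it. Cd74, the invariant chain, had 477 normalized counts in the miR-17 EV library, 541 in that of miR-93 EV, 813 in that of control EV and 584 in the unexposed one. Ciita, the master activator of class II genes, had 31.1 normalized counts in miR-17 EV against 36.9 in unexposed, with an interval of 0.512 to 1.39 that includes 1. Class I genes showed no shared direction: 5 of 22 were higher and 6 lower. The sign of their median turned under 5 of the 7 other settings tried. Among these 5, total counts and TMM also turned the median of all tested genes, to 0.04 and 0.003. Tapbp, tapasin, was lower at 6026 normalized counts in miR-17 EV against 7182 in unexposed, and Psme2, a proteasome activator subunit, was higher at 262 normalized counts in miR-17 EV against 208 in unexposed.

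Of 54 interferon-stimulated genes 18 were lower (33.3%) and 6 higher, with a median of -0.05 (-0.07 after GC correction). The median gene of this list had a mean of 1268 normalized counts. Among all genes, 13.4% were lower at 100 to under 1000 and 37.9% at 1000 or more, and no share matched for depth was computed. Oas3, an antiviral RNA sensor, had 3312 normalized counts in miR-17 EV, beside 3299.7 with miR-93 EV, 3625 with control EV and 4163 in unexposed cells. It was lower in all 3 exposed libraries than in unexposed. In contrast, Cxcl10, an interferon-induced chemokine, had 220.1 normalized counts after miR-17 EV, 196 after miR-93 EV, 221 after control EV and 158 in unexposed cells. Rsad2, the antiviral enzyme viperin, had 2356 normalized counts in the miR-17 EV library, 2099 in that of miR-93 EV, 1661 in that of control EV and 1892 in the unexposed one. Cxcl10 was about level in miR-17 EV and control EV, both above unexposed, and Art3 with similar reads overlaps it.

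Chemokines also split, 7 of 16 higher and 4 lower. The neutrophil attractants Cxcl1, with 89.6 normalized counts in miR-17 EV, beside 67.0 with miR-93 EV, 93.7 with control EV and 60.1 in unexposed cells, and Cxcl3, with 273 normalized counts after miR-17 EV, 296 after miR-93 EV, 130 after control EV and 216 in unexposed cells, were higher in miR-17 EV. Cx3cl1, fractalkine, had 28.4 normalized counts in the miR-17 EV library, 30.8 in that of miR-93 EV, 38.6 in that of control EV and 54.8 in the unexposed one, a ratio of 0.518 (0.323 to 0.820), and Ccl8 had 43.5 normalized counts in miR-17 EV, beside 62.5 with miR-93 EV, 72.6 with control EV and 71.7 in unexposed cells. For Cx3cl1 the 3 exposed libraries were below unexposed, and Ccl8 was lowest in miR-17 EV, with control EV level with unexposed. Among 24 cytokines 2 were higher and 5 lower: Tnf had 2732 normalized counts in miR-17 EV against 2511 in unexposed, a ratio of 1.09 (1.03 to 1.15), and Il16 had 799.6 normalized counts in miR-17 EV against 1062 in unexposed, a ratio of 0.753 (0.687 to 0.824). Chemoattractant receptors had 5 of 22 higher and 7 lower, and P2ry12, a neighbour of P2ry13, had 58.6 normalized counts in miR-17 EV against 88.5 in unexposed. Il16 is overlapped by Stard5 and P2ry12 by Med12l, both with more reads.

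Signalling genes moved in both directions. Of 26 NF-kB subunits and inhibitors 4 were higher and 9 lower, with Nfkbie, an inhibitor of the IkB family, at 491 normalized counts in miR-17 EV against 631 in unexposed, and Chuk, the kinase IKK-alpha, at 725 normalized counts in miR-17 EV against 588 in unexposed. Of 26 Toll-like receptors and adaptors 5 were higher and 9 lower. Tlr9, the DNA sensor, had 1038 normalized counts after miR-17 EV, 1010.3 after miR-93 EV, 1306 after control EV and 1311 in unexposed cells. Ly96, the MD-2 partner of Tlr4, had 245 normalized counts in the miR-17 EV library, 249 in that of miR-93 EV, 186 in that of control EV and 191 in the unexposed one. Both mimic libraries were on one side of both other libraries for Tlr9 and Ly96. Immediate early genes had 8 of 32 higher and 5 lower: Maff had 132 normalized counts in miR-17 EV against 87.5 in unexposed and Fos 1311 normalized counts in miR-17 EV against 1036 in unexposed, whereas Nr4a1, a nuclear receptor induced by signalling, had 36.4 normalized counts in miR-17 EV, beside 50.7 with miR-93 EV, 45.7 with control EV and 71.7 in unexposed cells, a ratio of 0.508 (0.336 to 0.759). Nr4a1 was lower in all 3 exposed libraries.

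Genes for the uptake of dying cells and for complement were more often lower than higher. Of 33 phagocytic and scavenger receptors 18 were lower and 8 higher, with a median of -0.08 (-0.05 after GC correction), and of 18 complement genes 11 were lower and 1 higher, with a median of -0.14 before and after correction. Timd4, a receptor for phosphatidylserine on dying cells and vesicles, had 46.1 normalized counts after miR-17 EV, 62.5 after miR-93 EV, 65.6 after control EV and 92.7 in unexposed cells, a ratio of 0.498 (0.346 to 0.709). Mertk, a receptor kinase of the same task, had 1729.6 normalized counts in the miR-17 EV library, 2001 in that of miR-93 EV, 1959 in that of control EV and 2305 in the unexposed one. Mfge8, the secreted bridge to phosphatidylserine, had 3118 normalized counts in miR-17 EV, beside 3473 with miR-93 EV, 3177 with control EV and 4105 in unexposed cells. In these 3 genes the exposed libraries were all below unexposed and miR-17 EV was the lowest. C1qa, C1qb and C1qc encode the chains of C1q. C1qa had 2148 normalized counts after miR-17 EV, 2353 after miR-93 EV, 2949 after control EV and 2778 in unexposed cells, and the ratios were 0.773, 0.906 and 0.842, with control EV above unexposed for C1qa. C2 had 666 normalized counts in miR-17 EV against 843 in unexposed and C4b 69.2 normalized counts in miR-17 EV against 103 in unexposed. Gm20547, with a mean of 636 normalized counts in the pair, overlaps C2. Among receptors that were higher, Clec4e, the fungal glycolipid sensor Mincle, had 3872 normalized counts in the miR-17 EV library, 3999 in that of miR-93 EV, 2526 in that of control EV and 3196 in the unexposed one.

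Lysosomal hydrolases and subunits of the proton pump had 24 of 44 genes lower and 10 higher, a median of -0.07 (-0.04 after GC correction). Npc2, a sterol carrier of lysosomes, had 11222 normalized counts in miR-17 EV against 13505 in unexposed, a ratio of 0.831 (0.811 to 0.852). Integrin subunits had 6 of 17 lower and 1 higher, Itgb5 lowest with 1079 normalized counts in miR-17 EV, beside 1192 with miR-93 EV, 1329 with control EV and 1481 in unexposed cells, and matrix metalloproteinases and their inhibitors had 6 of 15 lower and 3 higher, with Mmp9 at 312 normalized counts after miR-17 EV, 349 after miR-93 EV, 221 after control EV and 414 in unexposed cells. Alternative activation markers had 6 of 12 lower and 1 higher, led by Cd209f and Cd209g, and classical activation markers had 4 of 20 lower and 6 higher, so the classical list had no shared direction. Macrophage lineage regulators had 9 of 23 lower and 2 higher, among them Maf with 4382 normalized counts in miR-17 EV against 5149 in unexposed.

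Antioxidant genes driven by NRF2 were mostly higher, 19 of 30 with 4 lower and a median of 0.07 (0.11 after GC correction), a sign that held under every scaling and measure tried. Gsr, glutathione reductase, had 5997 normalized counts in the miR-17 EV library, 6015 in that of miR-93 EV, 4843 in that of control EV and 4940.4 in the unexposed one, a ratio of 1.21 (1.17 to 1.26), and Slc7a11, the cystine importer, had 5445 normalized counts in miR-17 EV, beside 5489.5 with miR-93 EV, 3395 with control EV and 4555 in unexposed cells. Prdx1, a peroxidase, had 68068 normalized counts after miR-17 EV, 71762 after miR-93 EV, 58679 after control EV and 56147 in unexposed cells. Srxn1, sulfiredoxin, had 11262 normalized counts in the miR-17 EV library, 11342 in that of miR-93 EV, 9587 in that of control EV and 9512 in the unexposed one. Both mimic libraries were above the other libraries in these 4 genes. Hmox1, heme oxygenase, had 38605 normalized counts in miR-17 EV against 36685 in unexposed, a ratio of only 1.05, and Ftl1, the ferritin light chain, was lower at 117287 normalized counts in miR-17 EV, beside 122350 with miR-93 EV, 93202 with control EV and 143957 in unexposed cells. AC151602.1, with a mean of 98555 normalized counts in the pair, overlaps Ftl1, so the counts of Ftl1 are uncertain. Iron genes as a whole had 6 of 20 higher and 3 lower. Genes of the unfolded protein response and its stress arm had 9 of 35 higher and 7 lower, and Chac1, an enzyme that degrades glutathione, had 67.4 normalized counts after miR-17 EV, 76.0 after miR-93 EV, 93.7 after control EV and 111 in unexposed cells.

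Genes of protein synthesis and breakdown were mostly higher, by small amounts. Of 84 cytosolic ribosomal protein genes 56 were higher and 7 lower, a median of 0.17 (0.22 after GC correction). Rpl11 had 1145 normalized counts in the miR-17 EV library, 1008 in that of miR-93 EV, 745 in that of control EV and 709 in the unexposed one, a ratio of 1.61 (1.47 to 1.77), and Rpl30 had 824 normalized counts in miR-17 EV, beside 778 with miR-93 EV, 616 with control EV and 581 in unexposed cells. Rplp1, a stalk protein gene, was lower at 11659 normalized counts after miR-17 EV, 12826 after miR-93 EV, 6172 after control EV and 14536 in unexposed cells, and Rps6 was lower at 2961 normalized counts in miR-17 EV against 3518 in unexposed. Translation factors had 18 of 35 higher and 7 lower with a median of 0.09 (0.10 after GC correction). Eif3m had 465 normalized counts in the miR-17 EV library, 410.1 in that of miR-93 EV, 322 in that of control EV and 317 in the unexposed one. Eif4e, the cap-binding protein, had 1234 normalized counts in miR-17 EV, beside 1226 with miR-93 EV, 1018 with control EV and 1018 in unexposed cells, and Eef2, the elongation factor, was lower at 33684 normalized counts in miR-17 EV against 39413 in unexposed. The constitutive proteasome had 20 of 34 higher and 2 lower with a median of 0.13 (0.14 after GC correction), and Psma2, Psma3 and Psma5, subunits of its outer ring, had ratios of 1.35, 1.35 and 1.34. Psma2 had 702 normalized counts after miR-17 EV, 600.2 after miR-93 EV, 513 after control EV and 518 in unexposed cells, with control EV level with unexposed. The counts of these genes are uncertain where pseudogenes share reads, as are those of Eif3m, which Ccdc73 overlaps, and the medians stayed positive under each scaling and measure tried.

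Proliferation genes fell into separate directions. Cell cycle and mitosis genes had 10 of 45 higher and 3 lower with a median of 0.10 (0.07 after GC correction), and DNA replication genes had 12 of 43 lower and 2 higher with a median of -0.06 (-0.04 after GC correction). Over unexposed, the cell cycle median was 0.06 for miR-93 EV and 0.25 for control EV. The replication median was -0.08 for miR-93 EV and 0.15 for control EV. Kif11, a spindle motor gene, had 532 normalized counts in the miR-17 EV library, 501 in that of miR-93 EV, 438 in that of control EV and 424 in the unexposed one. Prc1, a cytokinesis gene, had 783 normalized counts in miR-17 EV, beside 712 with miR-93 EV, 697 with control EV and 627 in unexposed cells. Cdc20, an activator of mitotic exit, had 315 normalized counts after miR-17 EV, 276 after miR-93 EV, 308 after control EV and 241 in unexposed cells. Foxm1, a transcription factor of mitotic genes, was lower at 766 normalized counts in the miR-17 EV library, 759.5 in that of miR-93 EV, 1107 in that of control EV and 980.1 in the unexposed one. Of the replication genes, Exo1, an exonuclease, had 104 normalized counts in miR-17 EV, beside 114 with miR-93 EV, 212 with control EV and 155 in unexposed cells. Lig1, DNA ligase, had 1084 normalized counts after miR-17 EV, 1189 after miR-93 EV, 1452 after control EV and 1418 in unexposed cells. Gins2, a helicase subunit, had 611 normalized counts in the miR-17 EV library, 683 in that of miR-93 EV, 826 in that of control EV and 798 in the unexposed one, whereas Tyms, thymidylate synthase, was higher at 169 normalized counts in miR-17 EV, beside 128 with miR-93 EV, 171 with control EV and 122 in unexposed cells. Control EV was above miR-17 EV for Exo1, Lig1, Gins2 and Foxm1. Cdc20 and Gins2 are uncertain because Elovl1 and Gm20388, with more reads, overlap them.

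**Figure D5:**
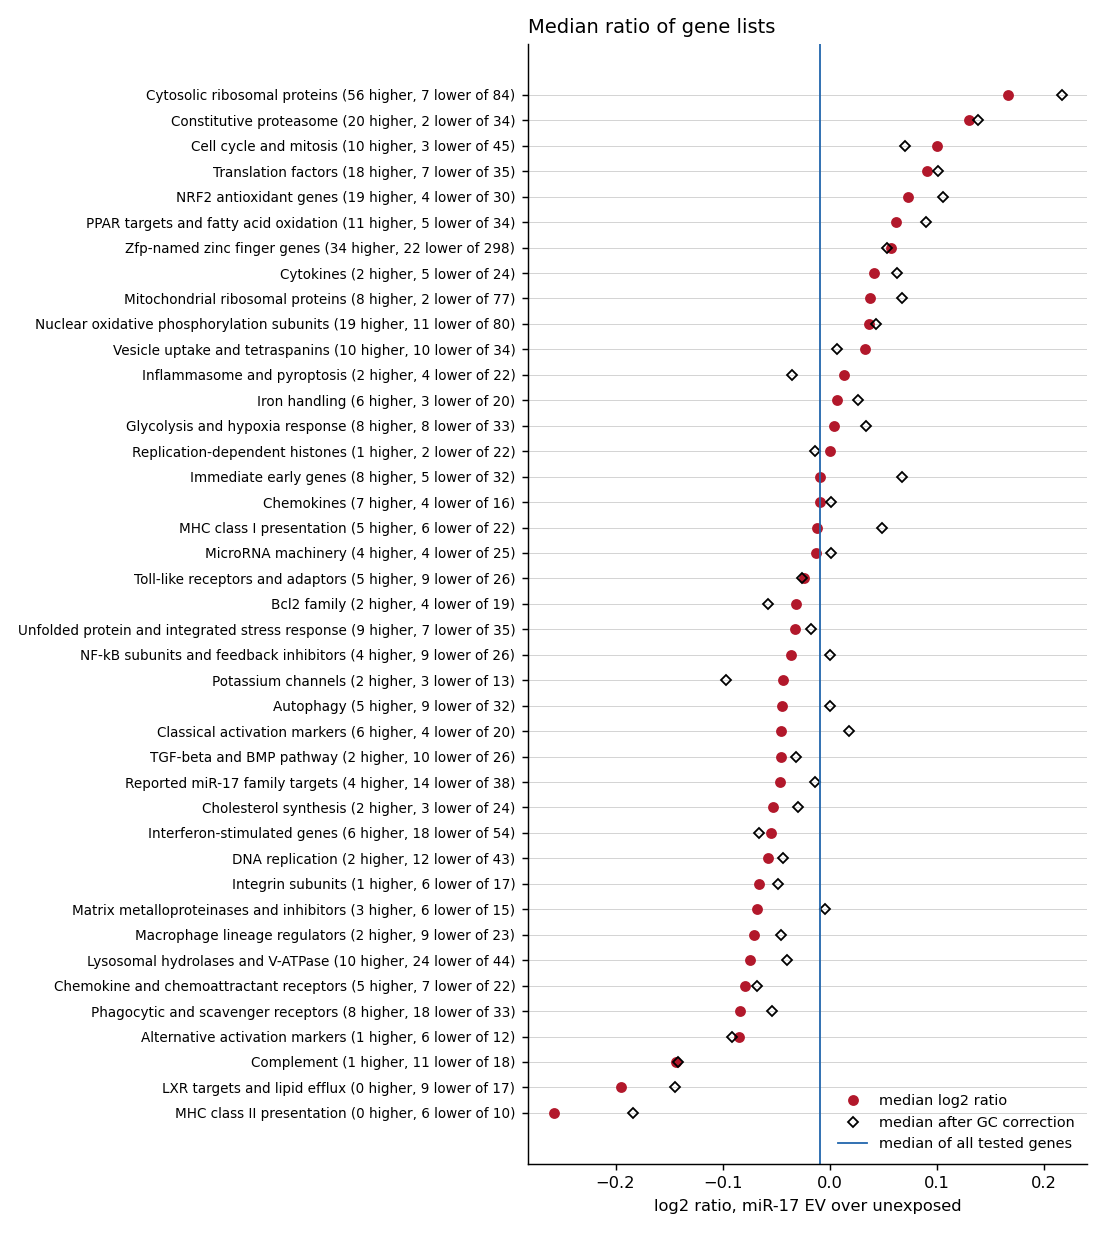
Median log2 ratio of miR-17 EV over unexposed (x axis) for 41 gene lists with at least 5 tested genes (y axis, with the number of genes whose interval lay above or below 1), as measured (red) and after GC correction (open diamonds); the blue line is the median of all tested genes. Cytosolic ribosomal proteins are at the top with 0.17 and MHC class II presentation at the bottom with -0.26.

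The remaining lists had medians near that of all genes. Nuclear oxidative phosphorylation subunits had 19 of 80 higher and 11 lower with a median of 0.04, and Ndufa12 of complex I had 446 normalized counts after miR-17 EV, 417 after miR-93 EV, 358 after control EV and 291 in unexposed cells while Ndufv3 had 943 normalized counts in the miR-17 EV library, 963 in that of miR-93 EV, 964 in that of control EV and 1291 in the unexposed one. Mitochondrial ribosomal proteins had 8 of 77 higher and 2 lower, a median of 0.04, with Mrps18c at 106 normalized counts in miR-17 EV, beside 92.3 with miR-93 EV, 109 with control EV and 60.1 in unexposed cells. The miRNA machinery had 4 of 25 higher and 4 lower: Prkra, a partner of Dicer, had 332 normalized counts in miR-17 EV against 427 in unexposed, and the Argonaute gene Eif2c4 (Ago4) had 343 normalized counts in miR-17 EV against 425 in unexposed. Genes of vesicle uptake and tetraspanins had 10 of 34 higher and 10 lower, and Rab27a, a GTPase of vesicle release, had 35.5 normalized counts after miR-17 EV, 47.1 after miR-93 EV, 57.4 after control EV and 62.2 in unexposed cells. Glycolysis and hypoxia genes had 8 of 33 higher and 8 lower, with Egln3 at 119.8 normalized counts in miR-17 EV against 88.5 in unexposed and Ndrg1 at 11482 normalized counts in miR-17 EV against 13914 in unexposed. Autophagy had 5 of 32 higher and 9 lower, the Bcl2 family 2 of 19 and 4, inflammasome genes 2 of 22 and 4, potassium channels 2 of 13 and 3, and replication-dependent histones 1 of 22 and 2. Of 298 genes with a Zfp name 34 were higher and 22 lower, a median of 0.06, beside the 3 called 2-fold higher.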

How the data were processed

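RNA of 4 pooled biological replicates per group was isolated with MiRNeasy kits and sequenced from Ion Total RNA-Seq libraries, per the labels. The transfection label gave the groups. The deposited table gave whole-number counts of reads for 38087 genes, not normalized, per the file headers. It also gave average coverage per base, a signal not scaled to depth, and gene GC content in percent, per the file headers. A second deposited table gave the authors' log2 values, centred on the 4-library median of each gene. The authors' deposited lists held log2 fold changes for this pair. The submitters' processing notes name mm10 and DESeq. The aligner, annotation and strand setting were not given in the sources used here, so reads of overlapping or near-identical genes can be shared. Gene length equalled the whole span in all 38087 genes, introns included.

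Counts were divided by median-of-ratios size factors (Python 3.11.15, numpy 2.4.6, pandas 2.3.3, scipy 1.17.1) over the 4 libraries, and the log2 ratio used a pseudocount of 1. Genes with a mean of at least 20 normalized counts in the pair were tested. Intervals are 95% exact conditional (Clopper-Pearson) intervals, and as reads carried no molecular identifiers they cover counting error only. The depths, 22607247 and 19705482 reads, give narrow intervals for genes with many reads and wide ones under 100. GC correction set the median of 20 GC bins to 0. TMM factors came from edgeR 4.0.16 (R 4.3.3). Seed sites were sought in the longest 3' UTR that GENCODE M21 gives a gene, and 95.3% of gene identifiers matched a reference name.

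Named genes were up to 6 per direction in each of 3 bands of mean count (20 to under 100, 100 to under 1000, 1000 and over) among the called named protein-coding genes. Where a band had fewer than 3, it was filled to 3 with genes of at least 1.5-fold by the interval rule. Up to 4 genes per list, the 5 protein-coding genes with the most reads, Mir17 and Mir17hg were added. Other list members and the 8mer genes with the lowest and highest ratios were chosen for their role or ratio after their values were seen. Some genes are not reported here. The comparison, the 41 gene lists and the rules were chosen with earlier results of these data known. A list of mitochondrially encoded genes had no member in the table used here.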

Additional observations from a re-analysis of the deposited data

How the results depend on the processing

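No paired analysis was possible because each group had 1 library, and for the same reason no library could be left out. The count of 2-fold higher genes, 45, was 229 with no minimum, 3 with a minimum of 100 normalized counts, 301 by the authors' log2 values and 27 for protein-coding genes only. The count of 2-fold lower genes, 28, was 152, 2, 317 and 16 under these settings, and 51 by average coverage. The counts by the authors' log2 values and by average coverage did not require an interval that left out 1, so their rule was looser. Total counts gave 61 higher and 21 lower, TMM 48 and 27, size factors from the 2 libraries alone 50 and 30, and GC correction 47 and 27. The following were chosen after seeing the data: ratios without a pseudocount gave 54 and 39, and leaving out genes overlapped by a gene with more reads gave 35 and 23. By average coverage 44 genes were higher, and 19 of these were among the 45; 22 of its lower genes were among the 28.

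The median log2 ratio of genes with a 7mer or 8mer site, 0.01, was -0.0103 after GC correction, 0.0555 by total counts and 0.0176 by TMM, the last pair chosen after seeing the data, beside 0.00, 0.04 and 0.00 for all tested genes. It was 0.00 with a minimum of 100 and by the authors' log2 values. The cause was not tested. Over all called genes, the authors' log2 value had the opposite sign for 3 of the 45 higher and 1 of the 28 lower. Among the named genes, Slco1c1 at -0.0681 and Htr2b at -0.265 turned sign in the authors' log2 values. Of 1456 log2 ratios of named genes under other settings, 1375 were within the gene's counting interval, 79 were outside it with the call's sign kept or no call made, and these 2 turned. Of 294 list medians, 281 were within the interval of the median. Low depth limits the genes under 100 normalized counts, of which 9.51% had an interval wholly within 1.5-fold, against 99.7% of those at 1000 or more.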

Other observations

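Genes of RNA splicing had not been on the gene lists and were added after their values were seen, so their direction is a description. Of 32 genes named Hnrnp, Srsf or Clk, 20 were higher in miR-17 EV by the interval rule (62.5%) and 3 lower. Among all tested genes 13.9% were higher, and 19.7% among those with a mean of 1000 or more. The list's median gene had a mean of 1379 normalized counts. The median log2 ratio was 0.16 (0.14 after GC correction), positive under every scaling and measure tried. Clk1, a kinase of SR splicing factors, had 743 normalized counts in the miR-17 EV library, 691 in that of miR-93 EV, 439 in that of control EV and 470.0 in the unexposed one, and Clk4 had 493 normalized counts in miR-17 EV, beside 505 with miR-93 EV, 383 with control EV and 321 in unexposed cells. Hnrnph1 had 1143 normalized counts after miR-17 EV, 1014 after miR-93 EV, 694 after control EV and 835 in unexposed cells, and Hnrnpa3 had 679.8 normalized counts in the miR-17 EV library, 641 in that of miR-93 EV, 457 in that of control EV and 491 in the unexposed one. Both mimic libraries were above both other libraries for these 4 genes. Clk3, at 1542 normalized counts in miR-17 EV against 1749 in unexposed, and Hnrnpul1, at 2692 normalized counts in miR-17 EV against 3087 in unexposed, were among the 3 lower ones.

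The authors' deposited lists for this pair held 1219 genes past a 2-fold rise and 1374 past a 2-fold fall. Of these, 301 (24.7%) and 317 (23.1%) reached the minimum of 20 normalized counts on average, and 30 and 20 met the 2-fold rule on counts. These 30 and 20 were 66.7% of the 45 higher and 71.4% of the 28 lower genes. The median mean count of the deposited lists was 7.88 for the higher and 6.52 for the lower genes.

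Gabrb1, a GABA receptor subunit gene with an 8mer site, had 596 normalized counts in miR-17 EV, beside 503 with miR-93 EV, 423 with control EV and 408 in unexposed cells, and was one of the 317 genes listed at 0 in all 4 libraries of the authors' log2 table. Gm15616, with a mean of 364 normalized counts in the pair, overlaps Gabrb1, so the counts of Gabrb1 are uncertain. Kcnma1, a potassium channel gene, had 64.8 normalized counts after miR-17 EV, 49.8 after miR-93 EV, 35.1 after control EV and 39.0 in unexposed cells. Kcnk12, another, had 27.5 normalized counts in the miR-17 EV library, 41.6 in that of miR-93 EV, 38.6 in that of control EV and 52.7 in the unexposed one. Cdkn2b, a cell cycle inhibitor gene called 2-fold higher, had 43.5 normalized counts in miR-17 EV, beside 35.3 with miR-93 EV, 18.7 with control EV and 20.02 in unexposed cells.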
